A study of Sus scrofa with 8 samples.

Results

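The knockout of MYF5, MYOD and MYF6 was compared with wild type in limb muscle of pig embryos at embryonic day 41 (E41). These are 4 of the 8 bulk RNA sequencing libraries of the series, chosen by genotype and stage in the sample titles. Of them, 2 carry the genotype label MYF5/MYOD/MYF6 knockout and 2 the label WT, with no treatment in either group. The 4 other libraries hold both genotypes at E62, a stage given as day 60 in the growth protocol. They entered the fit to estimate the spread and were set beside the E41 result. Of 22516 genes in the count table, 17020 passed the low-count filter and were tested, 14082 of them with a symbol. The labels do not say how the knockout was made, nor how many embryos of which sex were used, and the series title speaks of a knockdown where the labels say knockout.

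MYF5, MYOD1 and MYF6 encode basic helix-loop-helix transcription factors that pair with E proteins such as TCF3 and TCF12 and switch on muscle genes. They commit progenitors that migrate into the limb bud from the somites to the muscle lineage, and with MYOG and the MEF2 factors they drive fusion into fibres and assembly of the contractile apparatus. The fibroblasts, tendon and cartilage of the limb come from another source, the lateral plate mesoderm, and do not need these factors to form. A limb without muscle fibres therefore still holds connective tissue, vessels, nerves and skin, all of which contribute RNA to a bulk sample.

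Values are CPM, the estimated count as a rate of the TMM-scaled library total, given for replicate 1 and then replicate 2, unless raw counts are named. Changes are log2 of knockout over wild type with a standard error (n = 2 libraries a group), and adjusted p come from the quasi-likelihood test of edgeR with Benjamini-Hochberg adjustment over all genes tested. A gene is called at an adjusted p under 0.05. Of all genes tested, 18.5% were called higher and 20.8% lower, and each count of a gene list is to be read against these shares. The titles call the replicates biological without naming animals, so a p-value here rests on the spread among these libraries alone. Wild-type E41 library names carry the code LHL and knockout names RHL, and each group has a number string of its own. The labels explain neither, and whatever they mark cannot be told apart from genotype. Raw totals were 23402052 and 25239378 counts in wild type and 42352383 and 42668408 in the knockout, so low levels are measured more finely in the knockout. Results were recomputed with other scaling of the libraries, other low-count filters, counts thinned to the smallest library and each E41 library left out in turn. Results of single genes, but not of lists, were also recomputed with DESeq2 or limma-voom in place of edgeR and with each E62 library left out. Where recomputing ended the call of a gene named here, or moved its log2 change by over 1.5 times on the linear scale, the value stands at the end of the paragraph. Calls ended by a test against a 2-fold change (103 of 279 named genes) or by taking replicate number as a block (6) are not listed for those settings. Calls gained under another setting are mostly not listed either. The same holds where it moved the count of a list by over 1.5 times.

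The libraries of a group also differed from each other in tissue markers. Cartilage genes summed to 2019.7 and 653 CPM in wild type and 1275 and 7131 in the knockout. Wild-type replicate 1 thus held more cartilage RNA than replicate 2, and knockout replicate 2 more than all others. Red blood cell genes summed to 3997 and 2880.1 CPM in wild type and 4621 and 9595 in the knockout, with HBB, the beta globin, at 4429 and 9234 CPM in the knockout. Wild-type replicate 2 had the lowest sums of macrophage genes (289 and 145 CPM in wild type and 306 and 302 in the knockout), tendon genes (4893 and 2797 CPM in wild type and 4618 and 5739 in the knockout) and collagens (50682 and 29940.4 CPM in wild type and 64747 and 73347 in the knockout). Skin epithelium genes summed to 989 and 1702 CPM in wild type and 2122 and 1264 in the knockout, and 0 were called higher and 0 lower of 22 tested, against 18.5% higher and 20.8% lower of all genes tested. The part of these differences in other results was not tested, except through the values given with 1 library left out.

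**Figure D1:**
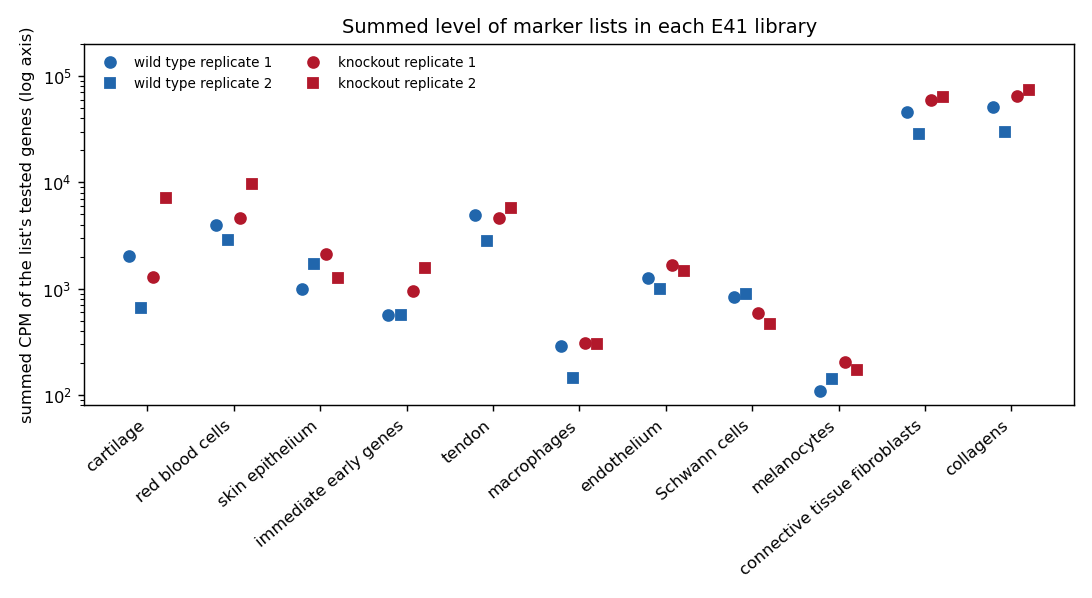
Summed CPM of the tested genes of 11 marker lists (log axis) in each E41 library, blue for wild type and red for knockout, circles for replicate 1 and squares for replicate 2. Knockout replicate 2 stands above the other libraries for cartilage and red blood cell genes, and wild-type replicate 2 below them for macrophage, tendon and collagen genes.

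The targeted genes were nearly silent in the knockout. MYF5 (ENSSSCG00000000937; chromosome 5, 100753440 to 100755558 on Sscrofa11.1 in RefSeq) had 948 and 1217 counts in wild type and 0 and 0 in the knockout, and its neighbour MYF6 (ENSSSCG00000026533; chromosome 5, 100762918 to 100764771) had 530 and 672 counts in wild type and 0 and 0 in the knockout. Taking 3 counts in the 2 knockout libraries together as the limit that 0 allows, MYF5 was at least 1542-fold lower and MYF6 at least 856-fold lower. MYOD1 (ENSSSCG00000013375; chromosome 2, 41422522 to 41424236) kept 1503 and 2161 counts in wild type and 28 and 20 in the knockout. The annotated genes on either side had few counts. PTPRQ, a receptor phosphatase next to MYF6, had 31 and 60 counts in wild type and 24 and 17 in the knockout (log2 change -2.22 ± 0.42, adjusted p = 0.0049). LIN7A, on the other side of MYF5, had 52 and 53 counts in wild type and 38 and 51 in the knockout (log2 change -1.33 ± 0.48, adjusted p = 0.058). OTOG, the inner ear protein otogelin, lies next to MYOD1 and had 9 and 22 counts in wild type and 5 and 0 in the knockout (log2 change -3.64 ± 1.07, adjusted p = 0.03). The potassium channel gene KCNC1 on its other side had 0 and 0 counts in wild type and 15 and 12 in the knockout and was at least 4.21-fold higher. OTOG (0.1 to 0.15; knockout 2 and wild type 2) had an adjusted p at or above 0.05 with 1 E41 library left out. OTOG (0.053 without wild type E62 2) had an adjusted p at or above 0.05 under other processing.

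Change at E41 was wide, and the largest falls were steeper than the largest rises. Of the genes tested, 39.2% were called, 3143 higher (18.5%) and 3535 lower (20.8%), and the median log2 change of all genes was 0.087. The count was 3927 without knockout replicate 1 and 4036 without knockout replicate 2. At least a 2-fold change was seen in 1303 of the genes called higher and 1166 of those called lower. At 16-fold or more there were 24 higher and 251 lower, and at 64-fold or more 0 higher and 137 lower. Genes with 0 counts in a genotype enter here at the bound from 3 counts, which can understate their change. This bound is coarser for rises, as the wild-type libraries are smaller. A gene without a symbol had 0 and 0 counts in wild type and 126 and 108 in the knockout. It is not counted at 64-fold. Of the 41 genes lowered 1024-fold or more, 30 belong to the muscle lists described here, against 151 of the 1166 lowered 2-fold or more. Those lists were chosen with earlier results of these data known, so the overlap is no independent test. The 82 listed genes of myosin, actin, troponin, Z-disc and calcium-handling proteins held 3.95% and 3.98% of all counts in wild type and 0.139% and 0.133% in the knockout. In bulk tissue, fewer muscle cells and less muscle RNA per cell cannot be told apart. In 73.3% of genes tested the 2 groups did not overlap, so separation of 2 from 2 libraries is by itself common here.

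**Figure D2:**
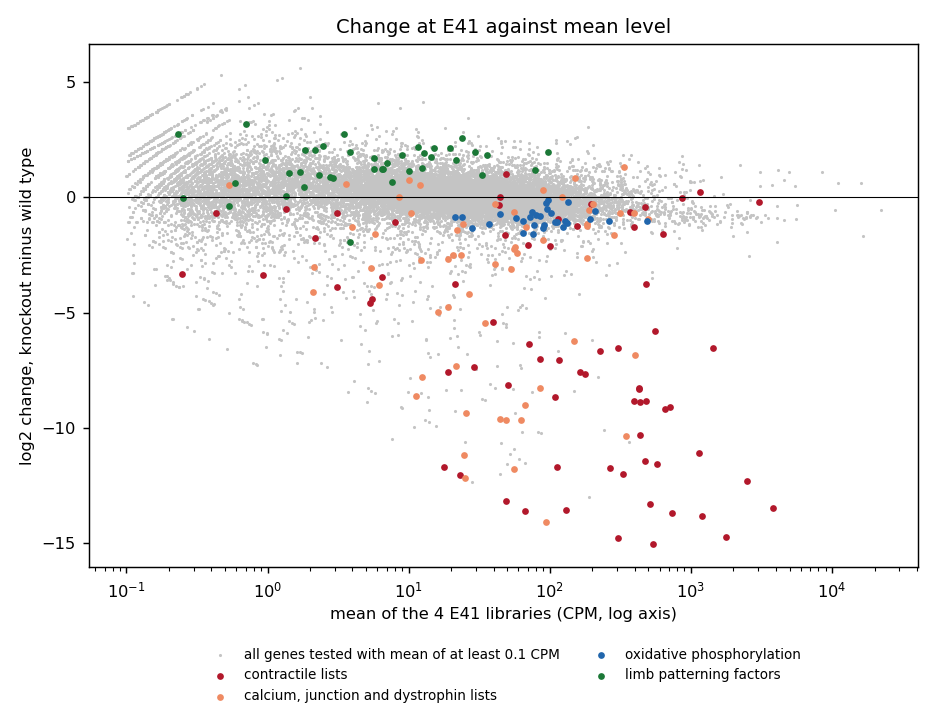
Log2 change at E41 (knockout minus wild type) of genes tested with a mean of at least 0.1 CPM, against the mean CPM of the 4 E41 libraries (log axis). Contractile genes (red), and some of calcium handling, the neuromuscular junction and the dystrophin complex (orange), reach far below 0, oxidative phosphorylation genes (blue) lie just under 0 and limb patterning factors (green) mostly above it. A gene with at most 3 counts in a genotype is drawn at its ratio or floor.

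Of all genes tested, 66 had 0 counts in both knockout libraries. CHRNG, the fetal subunit of the muscle acetylcholine receptor, led with 2200 and 2677 counts in wild type and 0 and 0 in the knockout and was at least 3473-fold lower. GJD2, which encodes a gap junction protein of neurons, had 281 and 493 counts in wild type and 0 and 0 in the knockout and was at least 551-fold lower. YIPF7, of a family of Golgi membrane proteins, was at least 359.6-fold lower. CORT, the neuropeptide cortistatin, had 177 and 175 counts in wild type and 0 and 0 in the knockout (at least 251-fold lower). Of enzymes, the tubulin deglutamylase relative AGBL1 was at least 313-fold lower. NMRK2, the muscle nicotinamide riboside kinase, was at least 147-fold lower. ART1, an ADP-ribosyltransferase of the muscle cell surface, was at least 164-fold lower. VSX1, a homeobox gene known from the retina, had 38 and 25 counts in wild type and 0 and 0 in the knockout and was at least 44.9-fold lower.

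The largest rises were smaller than the largest falls. TNR, the matrix protein tenascin R, stood at 0.0966 and 0.265 CPM in wild type and 4.46 and 3.21 in the knockout (log2 change 4.36 ± 0.69, adjusted p = 0.0023). PCDH8, a protocadherin of synapses and of forming somites, stood at 1.59 and 1.19 CPM in wild type and 30.2 and 18 in the knockout (log2 change 4.11 ± 0.55). LRTM2, a leucine-rich repeat membrane protein, stood at 1.4 and 0.841 CPM in wild type and 14.6 and 18 in the knockout (log2 change 3.86 ± 0.41, adjusted p = 0.00037). These 3, like SSTR1, NRTN, IGFALS and C1QTNF4 below, belong to the 12 largest rises, which were taken only from genes whose groups do not overlap. SSTR1, a somatostatin receptor, stood higher, at 3.24 and 5.62 CPM in wild type and 53.3 and 42.6 in the knockout (log2 change 3.43 ± 0.55). NRTN, the neurotrophic factor neurturin, stood at 0.483 and 0.442 CPM in wild type and 5.45 and 2.97 in the knockout (log2 change 3.18 ± 0.79, adjusted p = 0.016). IGFALS, the acid-labile subunit that stabilises circulating IGF complexes, stood at 1.98 and 1.73 CPM in wild type and 13.9 and 13.4 in the knockout (log2 change 2.88 ± 0.32, adjusted p = 0.00049). The secreted C1QTNF4 stood at 1.3 and 1.15 CPM in wild type and 8.74 and 10.7 in the knockout (log2 change 2.98 ± 0.36). In 183 genes both wild-type libraries had 0 counts. The glypican GPC5 had 1.1 and 0.934 CPM in the knockout (at least 14.7-fold higher). TMEM215 had 0.775 and 0.717 CPM there (at least 10.8-fold higher). ZNHIT2 had 0 counts in wild type and 3.79 and 3.00 CPM in the knockout, without a call (adjusted p = 0.1). NRTN (0.08 to 0.1; knockout 1, wild type 1 and wild type 2) had an adjusted p at or above 0.05 with 1 E41 library left out. TNR moved from 4.36 to 5.28 without wild type 2 on the log2 scale.

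The tier of transcription factors under the targeted genes was lowered unevenly. Of muscle transcription regulators, 3 of 24 tested members were higher and 14 lower, with a median log2 change of -1.40. MYOG, the factor of terminal differentiation, had 7079 and 9331 counts in wild type and 2 and 2 in the knockout (log2 change -12.99 ± 0.27). MEF2C, the main MEF2 factor of differentiating muscle, stood at 510.3 and 411 CPM in wild type and 56.2 and 64.9 in the knockout (log2 change -2.93 ± 0.14, adjusted p = 5.5e-06). MEF2D, another member, fell by little (78.1 and 78.3 CPM in wild type and 59.2 and 57.3 in the knockout; log2 change -0.42 ± 0.12, adjusted p = 0.029). MEF2A stood at 68.7 and 77.6 CPM in wild type and 70.9 and 74.2 in the knockout with a log2 change of -0.0114 ± 0.096 (adjusted p = 0.94; 0.28, called, with library-size scaling alone). The scarce MEF2B rose (1.01 and 0.575 CPM in wild type and 4.24 and 3.37 in the knockout; log2 change 2.26 ± 0.37). The VGLL cofactors of TEAD factors also moved apart. VGLL2 stood at 165 and 181 CPM in wild type and 0.0646 and 0.217 in the knockout (log2 change -10.23 ± 0.31). It is made mainly in skeletal muscle. VGLL3, made in mesenchyme as well, stood at 74.2 and 70.9 CPM in wild type and 65.3 and 56.3 in the knockout (adjusted p = 0.22). VGLL4 rose from 61.4 and 64.9 to 112 and 104 CPM (log2 change 0.77 ± 0.092, adjusted p = 0.00064). MEF2D (0.098 to 0.13; each of the 4) had an adjusted p at or above 0.05 with 1 E41 library left out. MEF2D (0.051 without 1 of the E62 libraries, 0.42 with library-size scaling) had an adjusted p at or above 0.05 under other processing. MYOG moved from -12.99 to -13.88 with thinned counts and VGLL2 moved from -10.23 to -9.61 without knockout 1, -11.31 without knockout 2 on the log2 scale.

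Regulators of the progenitor state that were called lower changed by smaller factors than MYOG. PAX7, the marker of muscle stem cells, had 1738 and 1854 counts in wild type and 84 and 18 in the knockout, with more in knockout replicate 1 (log2 change -6.23 ± 0.61). PAX3, which marks the migrating precursors, had 7 and 32 counts in wild type and 96 and 81 in the knockout (adjusted p = 0.35). MSC, the repressor musculin of branchial and limb muscle precursors, fell to 2.73 and 1.37 CPM in the knockout against 82.6 and 99.5 in wild type (log2 change -5.47 ± 0.67, adjusted p = 0.0025). PITX3 fell to 0.0861 and 0.13 CPM in the knockout against 9.52 and 8.54 in wild type (log2 change -6.34 ± 0.30). EYA proteins are transcriptional coactivators that act upstream of MYOD1. EYA4 stood at 70.5 and 73.2 CPM in wild type and 4.97 and 11.7 in the knockout (log2 change -3.11 ± 0.69, adjusted p = 0.02). EYA2 stood at 15.6 and 22 CPM in wild type and 1.53 and 3.65 in the knockout (log2 change -2.86 ± 0.40). EYA1 had 21.6 and 24.5 CPM in wild type and 15.8 and 13.2 in the knockout (adjusted p = 0.22). The knockout thus kept a larger share of EYA1 than of the other EYA genes. MEOX2 (110 and 69.1 CPM in wild type and 78.7 and 102 in the knockout) and TBX1 (5.65 and 8.67 CPM in wild type and 6.76 and 5.41 in the knockout) overlapped between the groups. HEYL, a Notch effector in muscle stem cells and vessel walls, fell from 82.5 and 69.4 to 28.5 and 23 CPM (log2 change -1.56 ± 0.25). EYA4 (0.061 to 0.097; knockout 1, wild type 1 and wild type 2) had an adjusted p at or above 0.05 with 1 E41 library left out. PAX7 moved from -6.23 to -7.72 without knockout 1, -5.51 without knockout 2, PITX3 moved from -6.34 to -7.16 with thinned counts and EYA2 moved from -2.86 to -3.61 without knockout 2 on the log2 scale.

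Of E proteins, which pair with the targeted factors, and inhibitors of that pairing, 5 of 12 tested members were higher and 0 lower, with a median log2 change of 0.38. Without knockout replicate 1 the list had 1 lower. ID proteins bind E proteins and keep them from muscle promoters. ID4 rose from 1.3 and 1.28 to 12.4 and 8.77 CPM (log2 change 3.03 ± 0.27). ID3 rose from 68.5 and 73.7 to 112 and 105 CPM (log2 change 0.61 ± 0.12, adjusted p = 0.0047). ID2 rose from 32.6 and 34.6 to 64.6 and 59.5 CPM (log2 change 0.88 ± 0.11). ID1 stood at 33.6 and 36.1 CPM in wild type and 45 and 46.8 in the knockout (adjusted p = 0.27). TWIST2, an inhibitor of MYOD1 in connective tissue precursors, rose from 11.11 and 17.1 to 87.1 and 64.3 CPM (log2 change 2.42 ± 0.58, adjusted p = 0.023). Among the E proteins themselves, TCF3 had 96.1 and 99.6 CPM in wild type and 132 and 121 in the knockout (adjusted p = 0.019), TCF4 71.9 and 77.1 CPM in wild type and 78.5 and 68.7 in the knockout and TCF12 367 and 352 CPM in wild type and 317 and 309 in the knockout, and neither of the last 2 was called. The E proteins and ID inhibitors list had 3 higher without knockout 1, wild type 1 or wild type 2. TWIST2 (0.07 to 0.11; each of the 4) and TCF3 (0.056 to 0.13; knockout 1, wild type 1 and wild type 2) had an adjusted p at or above 0.05 with 1 E41 library left out.

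Contractile genes differed widely in how far they fell. Of striated myosin heavy chains, 0 of 8 tested members were higher and 7 lower, with a median log2 change of -4.14. MYH3, the embryonic chain, stood at 5579 and 4452 CPM in wild type and 1.1 and 0.912 in the knockout (log2 change -12.28 ± 0.30). MYH8, the perinatal chain, stood at 2625 and 1931 CPM in wild type and 1.05 and 1.04 in the knockout (log2 change -11.08 ± 0.51, adjusted p = 1.3e-05). MYH15, an ancient slow-type chain, stood at 77.7 and 77.2 CPM in wild type and 1.72 and 1.89 in the knockout (log2 change -5.42 ± 0.34). Both chains build the thick filament of developing fibres. MYH7B, a slow-type chain, stood at 43.6 and 36.3 CPM in wild type and 2.63 and 3.19 in the knockout. The extraocular chain MYH13 stood at 10.6 and 10.4 CPM in wild type and 0.624 and 0.369 in the knockout. These minor chains fell less (log2 change -3.78 ± 0.18 for MYH7B and -4.40 ± 0.52 for MYH13). MYH4, a fast chain of adult fibres, stood at 0.29 and 0.619 CPM in wild type and 0 and 0.0869 in the knockout and was not called (adjusted p = 0.084). The 3 nonmuscle and smooth chains tested were not called: MYH9 had 348 and 323 CPM in wild type and 435 and 341 in the knockout, MYH11 15 and 14 CPM in wild type and 12.8 and 12.9 in the knockout and MYH14 17.5 and 18.1 CPM in wild type and 14.3 and 13.2 in the knockout (adjusted p = 0.24 to 0.6). Of light chains, 0 of 11 tested members were higher and 10 lower, with a median log2 change of -6.51. MYL11, the fast regulatory chain, had 68423 and 86001 counts in wild type and 6 and 6 in the knockout. MYL6, the chain of nonmuscle myosin, fell only from 522 and 552 to 412 and 399 CPM (log2 change -0.41 ± 0.10, adjusted p = 0.018). MYL9 of smooth muscle fell from 161 and 167 to 38.9 and 36.7 CPM (log2 change -2.12 ± 0.21, adjusted p = 0.00037). MYL6 (0.061 to 0.12; each of the 4) had an adjusted p at or above 0.05 with 1 E41 library left out. MYL6 (0.39 with library-size scaling) had an adjusted p at or above 0.05 under other processing.

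Thin filament genes also varied in the size of their fall. Of 6 actin genes, 3 were lower and 0 higher. ACTC1, the actin of heart and embryonic skeletal muscle, stood at 7187 and 8200.1 CPM in wild type and 0.818 and 0.543 in the knockout. ACTA2, smooth muscle actin, which developing skeletal muscle also makes, stood at 972 and 831 CPM in wild type and 66.5 and 66.7 in the knockout (log2 change -3.76 ± 0.14). The cytoplasmic actins stayed high: ACTB had 1051 and 1092 CPM in wild type and 1260.2 and 1226 in the knockout and ACTG1 3181 and 3338 CPM in wild type and 2842 and 2824 in the knockout (adjusted p = 0.13 to 0.25), and actin genes are alike enough that counting may share reads among them. ACTB was called higher with DESeq2 (adjusted p = 0.016) and with library-size scaling alone in edgeR (adjusted p = 0.0062). Of troponins and tropomyosins, 0 of 11 tested members were higher and 10 lower, with a median log2 change of -8.27. TNNT2, the troponin T of heart and early skeletal muscle, stood at 723 and 609 CPM in wild type and 0.215 and 0.109 in the knockout (log2 change -11.98 ± 0.26, adjusted p = 1.2e-07). TPM2 fell to 31.2 and 30.3 CPM in the knockout against 2755 and 2889 in wild type (log2 change -6.52 ± 0.17). TPM1, shared with smooth muscle and other cells, fell to 283 and 351 CPM in the knockout against 995 and 890.3 in wild type (log2 change -1.57 ± 0.24). TPM4, a cytoskeletal tropomyosin, had 898 and 846 CPM in wild type and 865 and 859 in the knockout, a log2 change of -0.0164 ± 0.12 (adjusted p = 0.93).

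**Figure D3:**
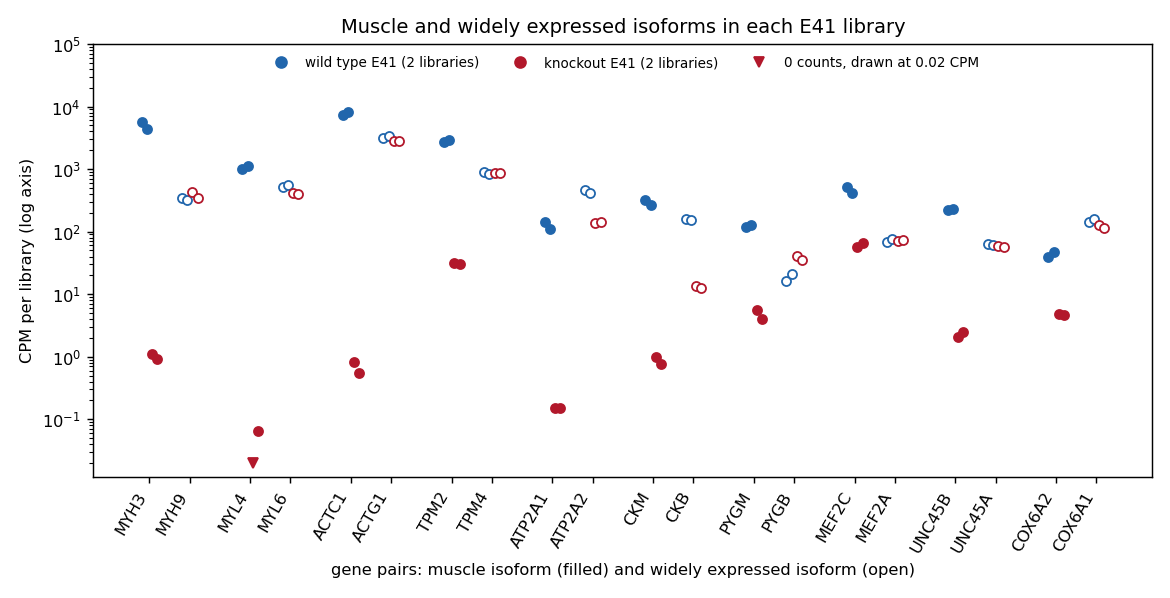
CPM of 10 muscle genes (filled) and a widely expressed relative of each (open) in the 4 E41 libraries on a log axis, blue for wild type and red for knockout. Muscle members are lower in the knockout, most of them by 1 or more decades, while relatives such as MYH9, TPM4, MEF2A and UNC45A lie at the same height in both genotypes; CKB and ATP2A2 are also lower.

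Z-disc and giant proteins were called lower in 30 of 35 tested genes, with 1 higher and a median of -7.36. NEB, nebulin, which spans the thin filament, stood at 557 and 502 CPM in wild type and 0.194 and 0.109 in the knockout (log2 change -11.75 ± 0.91). KLHL41, which keeps nebulin stable, stood at 1116 and 1198 CPM in wild type and 0.28 and 0.478 in the knockout (log2 change -11.57 ± 0.29, adjusted p = 1.8e-07). XIRP2, an actin-binding protein of junctions in muscle, had 5721 and 3959 counts in wild type and 3 and 3 in the knockout. DES, the intermediate filament desmin, kept 21.8 and 17.6 CPM in the knockout against 1075 and 1101 (log2 change -5.79 ± 0.26). Some members fell little or were not called. FLNC, filamin C, stood at 469 and 429 CPM in wild type and 317 and 263 in the knockout (log2 change -0.63 ± 0.17, adjusted p = 0.021), SYNPO2, of Z-discs and stress fibres, at 233 and 205 CPM in wild type and 94.1 and 91 in the knockout, and PDLIM3 (44.9 and 53.2 CPM in wild type and 43.7 and 33.9 in the knockout) and FHL3 (39.5 and 50.1 CPM in wild type and 48.2 and 41 in the knockout) had adjusted p of 0.5 to 0.98. The muscle genes MYBPC2, a fast myosin-binding protein, (0.58 and 0.487 CPM in wild type and 0.28 and 0.391 in the knockout) and TMOD4, a tropomodulin, (1.4 and 1.77 CPM in wild type and 1.23 and 1.02 in the knockout) were not called either (adjusted p = 0.23 to 0.28). NEBL, the nebulin relative nebulette, was the 1 that rose, from 26.6 and 38.3 to 67.5 and 61.9 CPM (log2 change 0.997 ± 0.21, adjusted p = 0.0087). FLNC (0.059 to 0.14; knockout 2, wild type 1 and wild type 2), SYNPO2 (0.072 to 0.078; knockout 1, knockout 2 and wild type 1) and NEBL (0.05; knockout 1) had an adjusted p at or above 0.05 with 1 E41 library left out. FLNC (0.13 with library-size scaling) had an adjusted p at or above 0.05 under other processing.

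Myoblast fusion and differentiation genes moved both ways. Of myoblast fusion and differentiation genes, 6 of 16 tested members were higher and 9 lower, with a median log2 change of -1.84. MYMK, the membrane protein that drives fusion, had 1951 and 2614 counts in wild type and 2 and 2 in the knockout (log2 change -11.15 ± 0.29). HJV, hemojuvelin, a BMP co-receptor of muscle and liver, stood at 69.1 and 69.3 CPM in wild type and 0.108 and 0.195 in the knockout. KLHL31, a muscle Kelch protein, stood at 121 and 106 CPM in wild type and 0.108 and 0.239 in the knockout. Both were down to traces in the knockout. JAM3, an adhesion protein, fell less, from 273 and 268 to 74.7 and 71.8 CPM (log2 change -1.88 ± 0.10, adjusted p = 1.2e-05), and its relative JAM2 rose from 37.5 and 34.6 to 43.4 and 53.8 CPM (log2 change 0.43 ± 0.13). BOC, an immunoglobulin receptor that promotes muscle differentiation and binds hedgehog, rose from 73.8 and 71.6 to 281 and 309.8 CPM (log2 change 2.02 ± 0.11, adjusted p = 1.1e-05). Its partner CDON rose from 209 and 146 to 319 and 351 CPM (log2 change 0.92 ± 0.16). The myoblast fusion and differentiation list had 3 higher without knockout 1 or knockout 2 and 2 without wild type 2. JAM2 (0.065 to 0.22; knockout 2, wild type 1 and wild type 2) had an adjusted p at or above 0.05 with 1 E41 library left out. JAM2 (0.054 with limma-voom, 0.054 with the E41 libraries alone) had an adjusted p at or above 0.05 under other processing. HJV moved from -8.81 to -8.17 with thinned counts and KLHL31 moved from -9.33 to -9.997 without knockout 2 on the log2 scale.

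The calcium machinery of the triad, where the surface tubule meets the calcium store, was lowered in most of its genes. Of triad and calcium handling genes, 0 of 24 tested members were higher and 20 lower, with a median log2 change of -3.46. The voltage sensor subunit CACNA1S had 1022 and 1183 counts in wild type and 6 and 1 in the knockout (log2 change -9.34 ± 0.30). TRDN, triadin, which anchors the release channel, had 1147 and 986 counts in wild type and 1 and 1 in the knockout. JSRP1, a triad protein that binds the sensor, stood at 19.6 and 25.5 CPM in wild type and 0.0861 and 0.0217 in the knockout. SRL, sarcalumenin, a calcium buffer, was the most abundant at 797 and 791 CPM in wild type and fell to 6.91 and 6.77 CPM (log2 change -6.86 ± 0.23, adjusted p = 7.2e-07). Of the 2 buffers called calsequestrin, CASQ2 fell to 5.06 and 2.82 CPM in the knockout against 313 and 275 in wild type (log2 change -6.22 ± 0.57). CASQ1, the form of adult fast fibres, fell to 5.81 and 6.54 CPM in the knockout against 38.5 and 31.4 in wild type (log2 change -2.50 ± 0.44). The calcium pump ATP2A2, which many tissues use, kept 137 and 143 of 456 and 413 CPM (log2 change -1.63 ± 0.11, adjusted p = 3.5e-05). KCNJ2 (9.42 and 7.79 CPM in wild type and 6.8 and 10.4 in the knockout) and ASPH (234 and 209.96 CPM in wild type and 171 and 196 in the knockout) were not called. KCNJ11, a potassium channel subunit that senses ATP, fell to 0.689 and 0.977 CPM in the knockout against 10.5 and 12.7 in wild type (log2 change -3.79 ± 0.20, adjusted p = 1.1e-05). CASQ1 (0.051 to 0.06; knockout 1 and knockout 2) had an adjusted p at or above 0.05 with 1 E41 library left out. CACNA1S moved from -9.34 to -10.16 with thinned counts, -11.00 without knockout 1, -8.58 without knockout 2 and JSRP1 moved from -8.63 to -9.83 without knockout 1, -7.98 without knockout 2 on the log2 scale.

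Most genes of the neuromuscular junction fell. Of 15 tested, 11 were lower and 2 higher. The acetylcholine receptor subunit CHRNA1 stood at 763 and 625 CPM in wild type and 0.689 and 0.369 in the knockout (log2 change -10.35 ± 0.43). CHRNB1, another subunit, stood at 41.2 and 38.9 CPM in wild type and 7.28 and 6.8 in the knockout (log2 change -2.51 ± 0.11), a smaller fall. CHRNE, the adult subunit, was scarce in both, 2.8 and 2.96 CPM in wild type and 4.2 and 4.39 in the knockout (adjusted p = 0.17). COLQ, the tail that anchors acetylcholinesterase, fell to 0.732 and 1.24 CPM in the knockout against 31.4 and 30.7 in wild type. The enzyme ACHE fell to 1.33 and 1.35 CPM in the knockout against 37.7 and 35 in wild type (log2 change -4.76 ± 0.29). LRP4, the receptor for agrin, also made outside muscle, had 44.5 and 46.2 CPM in wild type and 39.7 and 33.7 in the knockout (adjusted p = 0.39). Agrin itself, AGRN, rose from 180.2 and 203 to 524 and 439.9 CPM. LAMB2, a laminin of the synaptic cleft and of vessels, rose from 123 and 92.9 to 181 and 203 CPM (log2 change 0.83 ± 0.17, adjusted p = 0.0061). ETV5, a factor of muscle under the synapse and an FGF target, fell to 15.7 and 21.6 CPM in the knockout against 105 and 94.1 in wild type (log2 change -2.41 ± 0.32, adjusted p = 0.0021).

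The dystrophin complex, which ties the fibre's cytoskeleton to the matrix, was lower in most members. Of dystrophin complex genes, 3 of 21 tested members were higher and 17 lower, with a median log2 change of -1.31. DMD, dystrophin, kept 19.1 and 19.6 of 95.9 and 87 CPM (log2 change -2.24 ± 0.16), and UTRN, its relative in other cells, 158 and 148 of 239 and 208 CPM (log2 change -0.54 ± 0.11, adjusted p = 0.0068). The sarcoglycan SGCA, made mainly in striated muscle, fell to 1.46 and 1.61 CPM in the knockout against 58.8 and 76 in wild type (log2 change -5.45 ± 0.18). SGCB, which other tissues make too, fell to 104 and 121 CPM in the knockout against 263 and 246 in wild type (log2 change -1.17 ± 0.10). SGCE, the widely expressed sarcoglycan, had 129 and 112 CPM in wild type and 113 and 132 in the knockout (adjusted p = 0.88). SNTB2, a syntrophin, rose from 10.4 and 9.47 to 14.6 and 14 CPM (log2 change 0.52 ± 0.17, adjusted p = 0.046). Of membrane repair genes, TRIM72 stood at 137 and 131 CPM in wild type and 0.388 and 0.13 in the knockout. DYSF, dysferlin, which other cells also make, stood at 153 and 129 CPM in wild type and 39 and 38 in the knockout (log2 change -1.87 ± 0.19, adjusted p = 0.00037). CAPN3, the muscle calpain, fell to 2.73 and 2.78 CPM in the knockout against 51.7 and 50.7 in wild type (log2 change -4.21 ± 0.10, adjusted p = 1.5e-07). The dystrophin complex list had 1 higher without knockout 1 or knockout 2 and 0 without wild type 1 or wild type 2. UTRN (0.058 to 0.06; knockout 2 and wild type 1) and SNTB2 (0.082 to 0.17; each of the 4) had an adjusted p at or above 0.05 with 1 E41 library left out. UTRN (0.086 with library-size scaling) and SNTB2 (0.06 with thinned counts, 0.12 with limma-voom) had an adjusted p at or above 0.05 under other processing. TRIM72 moved from -9.00 to -9.97 without knockout 1 on the log2 scale.

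Listed energy enzymes of muscle were lower in 22 of 24 genes tested and higher in 0, with a median of -2.09. This list also holds widely expressed enzymes such as GAPDH, so it is not a list of muscle forms alone. PGAM2, a glycolytic mutase, stood at 157 and 171 CPM in wild type and 2.84 and 2.82 in the knockout (log2 change -5.85 ± 0.23). PYGM, the glycogen phosphorylase of muscle, stood at 118 and 127 CPM in wild type and 5.64 and 4.02 in the knockout (log2 change -4.66 ± 0.23). AMPD1, the AMP deaminase, had 646 and 531 counts in wild type and 6 and 0 in the knockout. Their relatives from other tissues did not rise in their place as a group: 2 of 22 were higher, 7 lower, and the median of -0.24 was 0.0475 with library-size scaling alone. PYGB, the brain phosphorylase, rose from 15.9 and 20.7 to 40.8 and 35.7 CPM (log2 change 1.06 ± 0.15, adjusted p = 0.0014). ENO2, the neuronal enolase, rose from 14.5 and 14.5 to 27.3 and 32.4 CPM (log2 change 1.04 ± 0.20). CKB, the brain creatine kinase, which embryonic muscle also makes, fell from 159 and 151 to 13.6 and 12.7 CPM (log2 change -3.56 ± 0.18, adjusted p = 1e-05). GAPDH, counted in the muscle list, stood at 2113 and 2276 CPM in wild type and 1003 and 1089 in the knockout (log2 change -1.07 ± 0.16, adjusted p = 0.0016). The ubiquitous or other-tissue energy isoforms list had 5 higher with library-size scaling and 4 with a 1 CPM filter, and 4 lower without knockout 1 or knockout 2 or with library-size scaling. AMPD1 moved from -8.65 to -9.43 with limma-voom, -13.12 without knockout 1, -7.69 without knockout 2 on the log2 scale.

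Genes of the respiratory chain fell together, by far smaller factors than contractile genes. Of oxidative phosphorylation genes, 0 of 30 tested members were higher and 28 lower, with a median log2 change of -0.98. NDUFA8 of complex I stood at 101 and 93.7 CPM in wild type and 33.3 and 33 in the knockout (log2 change -1.55 ± 0.10, adjusted p = 3.8e-05). UQCRB of complex III stood at 52.1 and 50.9 CPM in wild type and 23.4 and 22.6 in the knockout (log2 change -1.16 ± 0.088). The electron carrier CYCS, cytochrome c, stood at 117 and 112 CPM in wild type and 34.7 and 40.1 in the knockout (log2 change -1.61 ± 0.11, adjusted p = 4.4e-05). SDHA of complex II (99.9 and 104 CPM in wild type and 100.1 and 88 in the knockout) and COX6C of complex IV (137 and 152 CPM in wild type and 124 and 124 in the knockout) were not called (adjusted p = 0.1 to 0.45). Regulators of mitochondrial content gave no such common shift: of 12 tested, 2 were higher and 3 lower. These shares of 16.7% and 25% lie near the 18.5% and 20.8% of all genes tested. PPARGC1A, the coactivator that raises mitochondrial content, was scarce and fell, from 5.02 and 5.09 to 2.28 and 2.19 CPM (log2 change -1.17 ± 0.18, adjusted p = 0.002). ESRRB, a nuclear receptor, fell to 0.0431 and 0.347 CPM in the knockout against 4.59 and 6.24 in wild type and ESRRG to 1.01 and 1.09 CPM in the knockout against 4.01 and 2.7 in wild type, while TFAM, which packs mitochondrial DNA, had 44.3 and 40.1 CPM in wild type and 43.4 and 45.8 in the knockout and NRF1 25.1 and 25.1 CPM in wild type and 24.3 and 25.6 in the knockout (adjusted p = 0.52 to 0.95). The mitochondrial biogenesis regulators list had 5 higher with library-size scaling. ESRRG (0.057 to 0.067; knockout 1, knockout 2 and wild type 1) had an adjusted p at or above 0.05 with 1 E41 library left out. ESRRG (0.083 with limma-voom) had an adjusted p at or above 0.05 under other processing. ESRRB moved from -4.78 to -3.95 without knockout 1, -6.87 without knockout 2 on the log2 scale.

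Ubiquitin ligases of muscle and proteasome subunits were mostly lower. TRIM63 stood at 19.8 and 21.7 CPM in wild type and 0.452 and 0.543 in the knockout (log2 change -5.38 ± 0.28). The KLHL adaptor KLHL30 stood at 20.6 and 20.4 CPM in wild type and 0.108 and 0.0651 in the knockout (log2 change -7.84 ± 0.30, adjusted p = 1.6e-06). ASB5, another adaptor, stood at 13.6 and 16.9 CPM in wild type and 0.452 and 0.326 in the knockout (log2 change -5.28 ± 0.23). Muscle ligases were not all lowered. FBXO32, the ligase atrogin-1 of muscle wasting, had 13.3 and 14.8 CPM in wild type and 16.3 and 11.8 in the knockout, a log2 change of 0.00328 ± 0.24 (adjusted p = 0.99). Of the proteasome subunits, PSMC1 fell from 183 and 177 to 74.5 and 82.1 CPM (log2 change -1.20 ± 0.10, adjusted p = 0.00015). Over the list of both, 1 was higher and 19 lower of 26. Of chaperones, 0 of 16 tested members were higher and 10 lower, with a median log2 change of -1.07. UNC45B, which folds muscle myosin, fell to 2.05 and 2.45 CPM in the knockout against 222 and 228 in wild type (log2 change -6.64 ± 0.35). Its general relative UNC45A had 63 and 61.2 CPM in wild type and 59.5 and 56.7 in the knockout (adjusted p = 0.42). CRYAB, a small heat shock protein, fell to 2.73 and 2.3 CPM in the knockout against 148 and 184 in wild type, whereas HSPB1 had 107 and 121 CPM in wild type and 137 and 121 in the knockout and BAG3 31.8 and 31 CPM in wild type and 31.1 and 28.5 in the knockout, without calls. The mitochondrial chaperone HSPE1 fell from 350.3 and 368 to 135 and 124 CPM (log2 change -1.47 ± 0.13, adjusted p = 0.00015).

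CDKN1A, the cell cycle inhibitor p21 that myoblasts switch on when they stop dividing, fell from 374 and 405 to 3.96 and 6.73 CPM (log2 change -6.19 ± 0.41, adjusted p = 0.00015). Most genes of dividing cells were lower too: of cell cycle genes, 2 of 29 tested members were higher and 20 lower, with a median log2 change of -0.57. The cyclin CCNB2 stood at 53.1 and 55.6 CPM in wild type and 27.1 and 27.6 in the knockout (log2 change -0.99 ± 0.10). The helicase subunit MCM6 stood at 330.3 and 304 CPM in wild type and 209 and 208 in the knockout (log2 change -0.61 ± 0.086). CCND1, the cyclin of entry into the cycle, rose from 71.7 and 56.5 to 100.4 and 115 CPM (log2 change 0.75 ± 0.20, adjusted p = 0.021). CDKN2C, the inhibitor p18, rose from 14 and 12 to 22.7 and 20.6 CPM (log2 change 0.74 ± 0.14, adjusted p = 0.0043). CDKN1A is also a p53 target. In the list of p53 and apoptosis genes, 3 were higher and 5 lower of 20. These shares of 15% and 25% lie near the 18.5% and 20.8% of all genes tested. BAX, which promotes apoptosis, had 14.6 and 15.8 CPM in wild type and 16.2 and 17.1 in the knockout (adjusted p = 0.39). The apoptosis genes BCL2L11 (3.04 and 2.79 CPM in wild type and 9.64 and 9.12 in the knockout; log2 change 1.69 ± 0.25) and BCL2 (37.8 and 35.4 CPM in wild type and 64.1 and 64.7 in the knockout; log2 change 0.82 ± 0.098), which act against each other, both rose. The cell cycle list had 13 lower with library-size scaling. The p53 targets and apoptosis list had 8 higher with library-size scaling, and 2 lower with library-size scaling and 3 without knockout 1, knockout 2 or wild type 2. CCND1 (0.053 to 0.11; knockout 1, knockout 2 and wild type 2) had an adjusted p at or above 0.05 with 1 E41 library left out.

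Some biosynthesis genes fell as well. ASNS, which makes asparagine, fell from 151 and 133 to 11.4 and 14.4 CPM (log2 change -3.47 ± 0.16, adjusted p = 4.3e-06). ATF4, the stress factor that raises it, rose from 147 and 169 to 199.5 and 223 CPM (log2 change 0.42 ± 0.11). Of unfolded protein and integrated stress response genes, 2 were higher and 8 lower of 18. The calcium-binding chaperone CALR stood at 1477 and 1323 CPM in wild type and 802 and 898 in the knockout (log2 change -0.72 ± 0.12). In cholesterol synthesis, 1 was higher and 7 lower of 20. IDI1, an isomerase of the pathway, stood at 163 and 169 CPM in wild type and 58.3 and 64.5 in the knockout (log2 change -1.44 ± 0.20, adjusted p = 0.0016). FDFT1, squalene synthase, stood at 204 and 203 CPM in wild type and 115 and 124 in the knockout (log2 change -0.77 ± 0.13). Of hypoxia and glycolysis genes, 2 were higher and 7 lower of 22. EGLN3, a hydroxylase of the hypoxia factor, fell to 25.8 and 26.6 CPM in the knockout against 83.9 and 123 in wild type (log2 change -1.98 ± 0.28, adjusted p = 0.0022). HIF1A itself stood at 224 and 205 CPM in wild type and 198 and 224 in the knockout (adjusted p = 0.88). The unfolded protein and integrated stress response list had 4 higher with library-size scaling, and 4 lower without knockout 1 or wild type 1 or with library-size scaling and 5 without knockout 2. The cholesterol synthesis list had 3 lower without knockout 1 and 4 without wild type 1. The glycolysis and hypoxia response list had 5 higher with library-size scaling. ATF4 (0.081 to 0.13; knockout 2 and wild type 1) had an adjusted p at or above 0.05 with 1 E41 library left out.

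**Figure D4:**
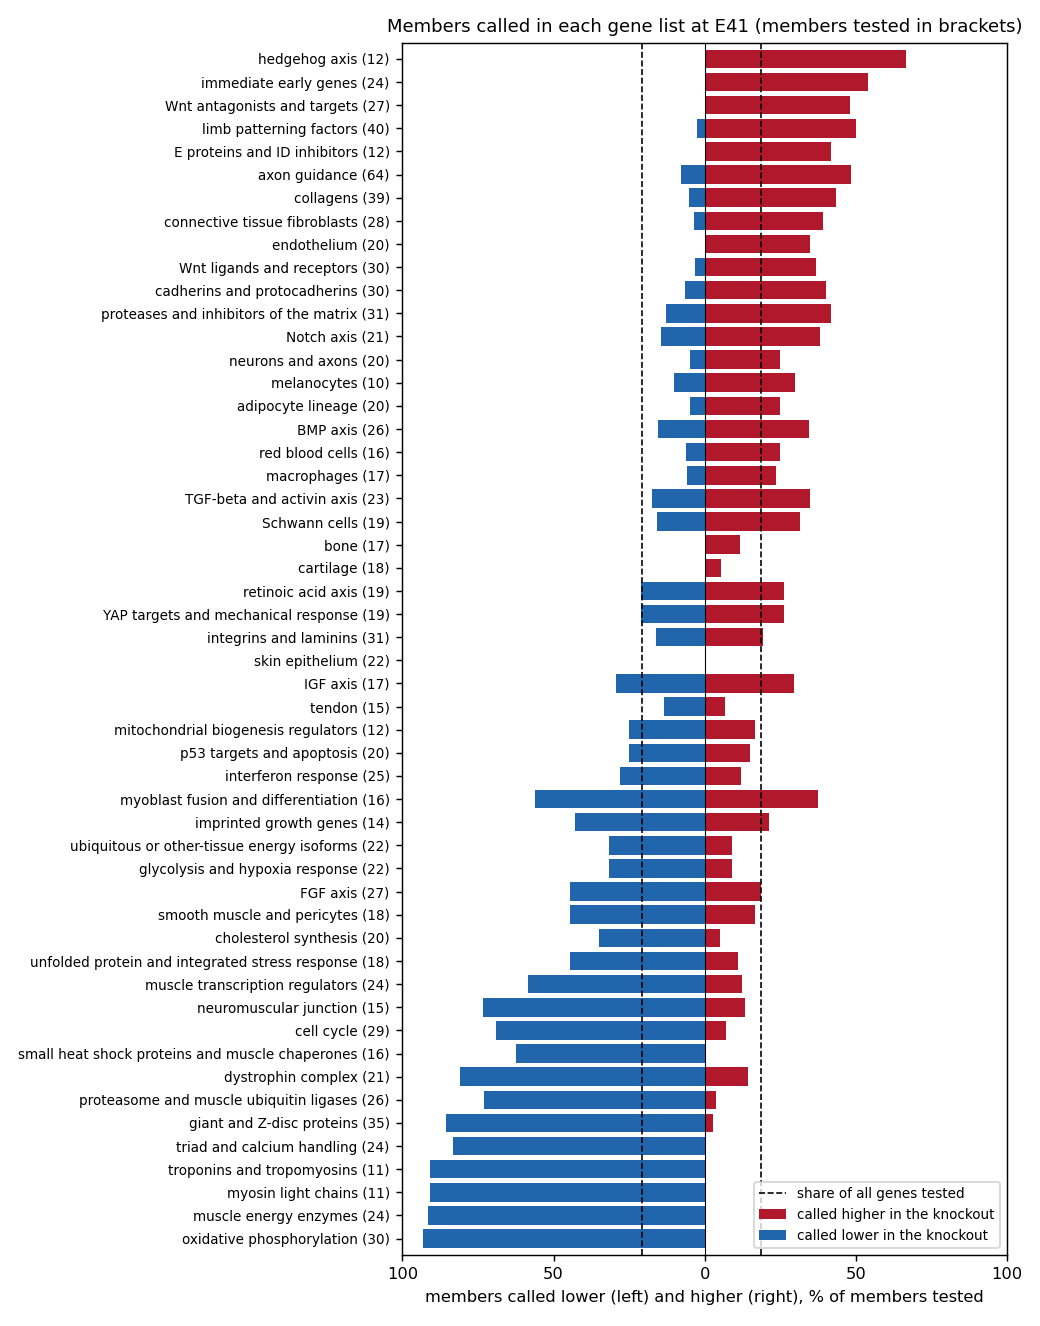
Share of tested members called higher (red, right) and lower (blue, left) in the knockout at E41 for the 52 gene lists with at least 10 tested members, with the share of all genes tested as dashed lines (18.5% higher, 20.8% lower). Oxidative phosphorylation, muscle energy and contractile lists lie at the bottom with nearly all members lower, and hedgehog, immediate early, Wnt and limb patterning lists at the top.

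MSTN, myostatin, the secreted brake on muscle growth, had 3574 and 3580 counts in wild type and 7 and 6 in the knockout (log2 change -10.17 ± 0.84, adjusted p = 0.00067). FGF6, a factor of muscle precursors, stood at 75 and 74.9 CPM in wild type and 0.258 and 0.282 in the knockout (log2 change -8.10 ± 0.71). FGF5, a minor ligand, stood at 3.77 and 2.61 CPM in wild type and 0.0431 and 0 in the knockout. FGFR4, the main FGF receptor of embryonic muscle, fell to 1.1 and 6.75 CPM in the knockout against 119 and 111 in wild type (log2 change -4.87 ± 0.81). Of the whole FGF axis, 5 of 27 tested members were higher and 12 lower, with a median log2 change of -0.43. That is 18.5% and 44.4%, against 18.5% and 20.8% of all genes tested. Inhibitors that FGF signalling induces were among the lower genes. SPRY4 stood at 78.5 and 71.9 CPM in wild type and 28.2 and 33.5 in the knockout (log2 change -1.29 ± 0.11, adjusted p = 0.00015). DUSP6 stood at 76.2 and 68.5 CPM in wild type and 34.8 and 41.8 in the knockout (log2 change -0.92 ± 0.12). FGF2 rose from 13.8 and 10.3 to 29.8 and 33.4 CPM (log2 change 1.39 ± 0.16, adjusted p = 0.00051). FGFR3, the receptor of cartilage, rose from 8.55 and 7.61 to 21.1 and 35.9 CPM. The named ligand and receptor genes thus moved both ways, but the axis was called higher no more often than all genes tested. The FGF axis list had 9 higher with library-size scaling, 2 without knockout 2, 3 without wild type 1 and 1 without wild type 2. FGFR3 (0.05 to 0.065; wild type 1 and wild type 2) had an adjusted p at or above 0.05 with 1 E41 library left out. FGFR4 moved from -4.87 to -4.09 without knockout 1, -6.70 without knockout 2 on the log2 scale.

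In the TGF-beta and activin axis, 8 of 23 tested members were higher and 4 lower, with a median log2 change of 0.51. INHBB, an activin subunit, rose from 5.27 and 3.01 to 22.6 and 19.6 CPM (log2 change 2.35 ± 0.26, adjusted p = 0.00047). TGFBR3, the co-receptor betaglycan, rose from 119.9 and 111 to 295 and 282 CPM (log2 change 1.32 ± 0.23). In the BMP axis, 9 of 26 tested members were higher and 4 lower, with a median log2 change of 0.56. SMAD6, an inhibitor that BMP signals induce, rose from 4.3 and 2.96 to 13.9 and 12.6 CPM (log2 change 1.87 ± 0.28). The antagonist GREM1 rose from 35.4 and 59.6 to 121 and 149 CPM (log2 change 1.51 ± 0.29, adjusted p = 0.008). The co-receptor RGMB fell from 164 and 173 to 61.9 and 57.4 CPM (log2 change -1.498 ± 0.14, adjusted p = 0.00025). In the IGF axis, 5 of 17 tested members were higher and 5 lower, with a median log2 change of 0.19. That is 29.4% each way, against 18.5% and 20.8% of all genes tested. The binding protein IGFBP4 rose from 201 and 159 to 486 and 433 CPM (log2 change 1.35 ± 0.19, adjusted p = 0.0015). The adaptor IRS2 rose from 13.1 and 16.1 to 45.1 and 40.4 CPM (log2 change 1.55 ± 0.25). The RNA-binding protein IGF2BP1 fell from 45.8 and 44.2 to 23.2 and 19 CPM (log2 change -1.10 ± 0.14, adjusted p = 0.00077). The TGF-beta and activin axis list had 13 higher with library-size scaling, 4 without knockout 1 and 5 without wild type 2, and 2 lower without knockout 1, knockout 2 or wild type 2 or with library-size scaling. The BMP axis list had 5 higher without knockout 1 or wild type 2 and 4 without knockout 2, and 1 lower without knockout 1 or wild type 2 or with library-size scaling and 2 without knockout 2 or wild type 1 or with thinned counts. The IGF axis list had 8 higher with library-size scaling, 2 without knockout 1 or wild type 2 and 3 without knockout 2 or wild type 1, and 3 lower without wild type 1 or with library-size scaling.

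Hedgehog and Wnt components were called higher more often than lower. Of hedgehog genes, 8 of 12 tested members were higher and 0 lower, with a median log2 change of 0.91. GAS1, a co-receptor that helps hedgehog bind, rose from 13.2 and 11.3 to 81.9 and 65.3 CPM (log2 change 2.58 ± 0.15, adjusted p = 1.7e-05). SMO, the signal transducer, rose from 118 and 109 to 206 and 215 CPM. The factor GLI2 rose from 18.7 and 19.8 to 42.9 and 42.3 CPM (log2 change 1.14 ± 0.17, adjusted p = 0.0015). GLI1, a direct readout of the pathway, had 7.54 and 5.62 CPM in wild type and 10.9 and 14.7 in the knockout (adjusted p = 0.12). PTCH1, the main receptor and also a target, had 22.4 and 23.5 CPM in wild type and 28.1 and 42.4 in the knockout (adjusted p = 0.23). Of Wnt ligands and receptors, 11 of 30 tested members were higher and 1 lower, with a median log2 change of 0.83. WNT11 rose from 26.2 and 28.9 to 95.4 and 87.6 CPM (log2 change 1.73 ± 0.15, adjusted p = 0.00016). The Wnt receptor ROR2 rose from 50 and 42.1 to 125 and 123 CPM (log2 change 1.42 ± 0.13). FZD4, the 1 lower member, fell from 32.2 and 31.3 to 16.2 and 15.9 CPM (log2 change -0.99 ± 0.16, adjusted p = 0.0028). Of Wnt antagonists and targets, 13 of 27 tested members were higher and 0 lower, with a median log2 change of 0.99. The R-spondin RSPO3 rose from 19.4 and 25.4 to 65.7 and 63.8 CPM (log2 change 1.53 ± 0.25, adjusted p = 0.0037). Its receptor LGR4 rose from 87 and 70.3 to 183 and 205 CPM (log2 change 1.30 ± 0.12). The target NKD2 rose from 13.6 and 15.4 to 30.2 and 27.3 CPM. The Wnt ligands and receptors list had 7 higher without knockout 1 and 6 without knockout 2. The Wnt antagonists and targets list had 7 higher without knockout 1 and 8 without knockout 2 or wild type 1.

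Notch, retinoic acid and YAP lists held calls in both directions. In the Notch axis, 8 of 21 tested members were higher and 3 lower, with a median log2 change of 0.23. NOTCH1, a receptor of precursors and endothelium, rose from 29.5 and 37.7 to 97.4 and 70 CPM (log2 change 1.31 ± 0.18, adjusted p = 0.0012). DLL4, its ligand in vessels, rose from 9.85 and 9.64 to 21.1 and 18.5 CPM (log2 change 1.02 ± 0.16). HES1, a general Notch target, had 37.5 and 37.8 CPM in wild type and 43.8 and 37.8 in the knockout (adjusted p = 0.68). It is 1 of 10 members not called, and HEYL, the Notch effector given above, was among the 3 lower. HES1 thus does not stand for all Notch targets. The retinoic acid and YAP lists each had 26.3% higher and 21.1% lower, near the 18.5% and 20.8% of all genes. In the retinoic acid axis, 5 of 19 tested members were higher and 4 lower, with a median log2 change of 0.16. The receptor RARG rose from 35.4 and 40.3 to 117 and 125 CPM (log2 change 1.68 ± 0.13, adjusted p = 8e-05). RXRG, which muscle makes, fell from 59.4 and 64.5 to 11.9 and 7.43 CPM (log2 change -2.68 ± 0.35, adjusted p = 0.0018). ALDH1A2, which makes retinoic acid, fell from 27.8 and 26.1 to 3.49 and 6.21 CPM (log2 change -2.47 ± 0.68). Its relative ALDH1A3 stood at 66.2 and 61.4 CPM in wild type and 33.5 and 33.1 in the knockout (adjusted p = 0.062). Of YAP targets and mechanical response genes, 5 of 19 tested members were higher and 4 lower, with a median log2 change of 0.33. ANKRD1, a YAP target and titin-binding muscle protein, had 2189 and 2075 counts in wild type and 2 and 1 in the knockout. The target CCN2 had 172 and 147 CPM in wild type and 68.8 and 142 in the knockout (adjusted p = 0.3). TEAD4, the YAP partner of muscle precursors, fell from 37.1 and 44.2 to 14.1 and 11.5 CPM (log2 change -1.67 ± 0.14, adjusted p = 0.00014). YAP1 rose from 72.9 and 68.8 to 105 and 101 CPM (log2 change 0.54 ± 0.084). The Notch axis list had 5 higher without knockout 1 or wild type 2. The retinoic acid axis list had 9 higher with library-size scaling and 3 without knockout 1 or wild type 1, and 2 lower without knockout 1, knockout 2 or wild type 1. The YAP targets and mechanical response list had 9 higher with library-size scaling and 3 without wild type 2, and 2 lower without knockout 2. ALDH1A2 (0.099 to 0.18; each of the 4) had an adjusted p at or above 0.05 with 1 E41 library left out. ALDH1A2 (0.061 to 0.063 without 1 of the E62 libraries, 0.06 with no filter, 0.12 with limma-voom) had an adjusted p at or above 0.05 under other processing.

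Genes that set position in the limb were called higher far more often than lower. Of limb patterning factors, 20 of 40 tested members were higher and 1 lower, with a median log2 change of 1.54, against 18.5% and 20.8% of all genes. PITX1, which gives the hindlimb its identity, rose from 39.2 and 40.5 to 164 and 146 CPM (log2 change 1.96 ± 0.25). IRX1, of the Iroquois factors, rose from 8.21 and 15.7 to 55.3 and 38.3 CPM (log2 change 1.97 ± 0.32, adjusted p = 0.0035). SHOX2, which controls growth of the upper limb segment, rose from 50.3 and 44.9 to 108 and 110.04 CPM (log2 change 1.19 ± 0.15, adjusted p = 0.00071). HAND2, a factor of the posterior limb, rose from 7.2 and 3.58 to 20.6 and 20.1 CPM. TBX2, a T-box repressor of the limb margins, rose from 10.4 and 11.15 to 28.5 and 36.8 CPM (log2 change 1.60 ± 0.34). TBX4, the hindlimb T-box gene, had 8.5 and 5.93 CPM in wild type and 27.4 and 36.9 in the knockout (adjusted p = 0.066). TBX5, its forelimb counterpart, had 7.2 and 4.03 CPM in wild type and 21.1 and 28.5 in the knockout (adjusted p = 0.064). ZIC1, of the zinc finger factors of neural tube and somite, was the 1 that fell, from 4.98 and 7.3 to 1.46 and 1.72 CPM. HOX genes, which mark position along limb and trunk, were called in 8 higher and 3 lower of 31 tested, to be read against the same shares. HOXD9 rose from 9.85 and 12.2 to 28.6 and 20.5 CPM (log2 change 1.15 ± 0.29, adjusted p = 0.018). HOXC10 had 25.4 and 28.3 CPM in wild type and 16.3 and 16.2 in the knockout (log2 change -0.72 ± 0.21, adjusted p = 0.029). The limb patterning factors list had 8 higher without knockout 1, 10 without knockout 2 or wild type 1 and 12 without wild type 2. TBX2 (0.052 to 0.066; knockout 2, wild type 1 and wild type 2), ZIC1 (0.079 to 0.17; each of the 4), HOXD9 (0.056 to 0.1; knockout 1, wild type 1 and wild type 2) and HOXC10 (0.085 to 0.13; each of the 4) had an adjusted p at or above 0.05 with 1 E41 library left out. ZIC1 (0.062 to 0.063 without 1 of the E62 libraries, 0.054 with library-size scaling) and HOXC10 (0.14 with library-size scaling) had an adjusted p at or above 0.05 under other processing. HAND2 moved from 1.92 to 2.54 without wild type 1 on the log2 scale.

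Transcription factors of connective tissue were among the genes that rose, while collagen genes of one fibril differed in their calls. Of connective tissue fibroblast genes, 11 of 28 tested members were higher and 1 lower, with a median log2 change of 0.63. PRRX2, a homeobox factor of limb mesenchyme, stood at 11.7 and 9.78 CPM in wild type and 40.6 and 42.8 in the knockout (log2 change 1.96 ± 0.13, adjusted p = 3.5e-05). OSR1, which marks muscle connective tissue, stood at 25.5 and 22.2 CPM in wild type and 54.3 and 53.8 in the knockout (log2 change 1.18 ± 0.31, adjusted p = 0.024). TBX18, of limb and trunk mesenchyme, stood at 23 and 17.8 CPM in wild type and 43.2 and 47.4 in the knockout (log2 change 1.15 ± 0.31). EBF2, known from brown fat and connective tissue, was the 1 that fell, from 82.8 and 72.4 to 50.3 and 45.4 CPM (log2 change -0.70 ± 0.11, adjusted p = 0.0021). LUM, the proteoglycan lumican, rose from 1417 and 1011 to 3195 and 3264 CPM (log2 change 1.41 ± 0.33). COL1A1 rose from 6939.8 and 3802 to 11026 and 12128 CPM (log2 change 1.11 ± 0.35, adjusted p = 0.041). COL1A2, which joins it in type I collagen, stood at 11281 and 6014 CPM in wild type and 12049 and 14674 in the knockout (adjusted p = 0.17). COL3A1 stood at 15584 and 9470.2 CPM in wild type and 19341 and 19619 in the knockout (adjusted p = 0.17), with wild-type replicate 2 the lowest of the 4 libraries in both. Of early fat cell factors, CEBPA rose from 5.89 and 8.32 to 27.2 and 18.1 CPM. CEBPD rose from 14.5 and 21.2 to 48.1 and 40 CPM (log2 change 1.30 ± 0.19, adjusted p = 0.0014). Of 20 adipocyte genes, 5 were higher and 1 lower (25% and 5%, against 18.5% and 20.8% of all genes tested). The connective tissue fibroblasts list had 17 higher with library-size scaling, 4 without knockout 1 or wild type 2 and 5 without knockout 2. The adipocyte lineage list had 9 higher with library-size scaling. OSR1 (0.079 to 0.12; each of the 4), TBX18 (0.063 to 0.13; each of the 4), LUM (0.058 to 0.089; knockout 1, knockout 2 and wild type 2) and COL1A1 (0.11 to 0.16; knockout 1, knockout 2 and wild type 2) had an adjusted p at or above 0.05 with 1 E41 library left out. TBX18 (0.052 to 0.053 without 1 of the E62 libraries, 0.064 with limma-voom) and COL1A1 (0.06 to 0.062 without 1 of the E62 libraries, 0.054 with limma-voom) had an adjusted p at or above 0.05 under other processing.

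Most collagen genes that were called were higher, and both exceptions are known from muscle. Of collagen genes, 17 of 39 tested members were higher and 2 lower, with a median log2 change of 0.87. COL22A1, the collagen of the junction between muscle and tendon, fell from 94.3 and 96.8 to 5.06 and 1.91 CPM (log2 change -4.78 ± 0.45, adjusted p = 0.00067). COL19A1, made in developing muscle, fell from 33.9 and 41.8 to 5.7 and 3.97 CPM. COL13A1, a membrane collagen, rose from 9.23 and 9.69 to 30.1 and 29.1 CPM (log2 change 1.64 ± 0.16, adjusted p = 0.00029). COL27A1, a fibrillar collagen of cartilage and other tissue, rose from 53.5 and 40.6 to 144 and 209.5 CPM. COL24A1, also fibrillar, rose from 19.3 and 28.4 to 47.6 and 56.9 CPM (log2 change 1.13 ± 0.18). CHODL, chondrolectin, a membrane lectin that muscle makes and that was listed with tendon, fell from 172 and 121 to 11.7 and 20 CPM (log2 change -3.21 ± 0.47, adjusted p = 0.0042). The tendon markers proper were not called: SCX had 3.48 and 1.81 CPM in wild type and 2.71 and 5.43 in the knockout, TNMD 281 and 77.6 CPM in wild type and 130.01 and 268 in the knockout and MKX 31.6 and 12.3 CPM in wild type and 19.1 and 47.7 in the knockout (adjusted p = 0.4 to 0.89). In all 3 the groups overlapped. Matrix proteases and inhibitors were higher in 13 and lower in 4 of 31 genes, with MMP11, a stromal protease, up from 21.4 and 18.9 to 48.5 and 50 CPM (log2 change 1.29 ± 0.12, adjusted p = 2e-04). ADAM12, known from fusing muscle cells, fell from 49.2 and 45.4 to 21.6 and 23.8 CPM (log2 change -1.06 ± 0.093, adjusted p = 0.00017). The collagens list had 7 higher without knockout 1 and 9 without wild type 2. The proteases and inhibitors of the matrix list had 7 higher without knockout 1, 5 without knockout 2 and 6 without wild type 2. COL19A1 (0.067; knockout 2) had an adjusted p at or above 0.05 with 1 E41 library left out. COL22A1 moved from -4.78 to -5.64 without knockout 1 on the log2 scale.

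Axon guidance genes and cadherins were called higher more often than all genes tested (18.5%), and integrins and laminins were not. Of axon guidance genes, 31 of 64 tested members were higher and 5 lower, with a median log2 change of 0.67 (48.4% higher). SEMA3F, a secreted semaphorin that repels axons, rose from 71.7 and 70.6 to 226 and 206 CPM (log2 change 1.60 ± 0.10, adjusted p = 3.2e-05). SLIT3, a guidance ligand of fibroblasts and vessels, rose from 139 and 127 to 421 and 374 CPM (log2 change 1.58 ± 0.13). EFNB3, an ephrin, rose from 8.36 and 10.8 to 23.9 and 27.5 CPM (log2 change 1.42 ± 0.17). The semaphorin receptor PLXNA2 fell from 82.9 and 86.3 to 26.6 and 25.6 CPM (log2 change -1.70 ± 0.12, adjusted p = 4.8e-05). HGF and CXCL12 guide muscle precursors into the limb through their receptors MET and CXCR4. HGF rose from 8.07 and 6.28 to 16.6 and 11 CPM (adjusted p = 0.015). CXCL12 stood at 144 and 145 CPM in wild type and 207 and 171 in the knockout (adjusted p = 0.5). The receptors MET (74.7 and 54.9 CPM in wild type and 82.6 and 72.1 in the knockout) and CXCR4 (34.2 and 36.5 CPM in wild type and 31.5 and 27.7 in the knockout) had adjusted p of 0.26 to 0.38. Of cadherins, 12 of 30 tested members were higher and 2 lower, with a median log2 change of 0.73 (40% higher). CDH15, the cadherin of muscle precursors, fell to 0.646 and 0.803 CPM in the knockout against 124 and 123 in wild type. CDH6, a cadherin of several embryonic tissues, rose from 14.1 and 12.7 to 35.9 and 30.4 CPM (log2 change 1.31 ± 0.16, adjusted p = 0.00063). The mesenchymal CDH11 rose from 557 and 432 to 987.1 and 1120.3 CPM (log2 change 1.09 ± 0.15, adjusted p = 0.0012). Of integrins and laminins, 6 were higher and 5 lower of 31 (19.4% and 16.1%, against 18.5% and 20.8% of all genes). ITGA7, the laminin receptor of fibres, fell from 96.3 and 69.8 to 25.8 and 22.3 CPM. ITGA8, an integrin of mesenchyme, rose from 54.1 and 35.3 to 113 and 119 CPM (log2 change 1.38 ± 0.18, adjusted p = 0.0012). The axon guidance list had 17 higher without knockout 1, 19 without knockout 2 and 20 without wild type 2, and 3 lower without knockout 1, knockout 2, wild type 1 or wild type 2 or with library-size scaling. The integrins and laminins list had 1 lower without knockout 2, 2 without wild type 1 and 3 without wild type 2. HGF (0.081 to 0.12; knockout 1 and wild type 2) and ITGA7 (0.054; knockout 2) had an adjusted p at or above 0.05 with 1 E41 library left out.

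Lists named for other cell types also held genes that fell. SPTB, beta spectrin, listed with red blood cells and also made by muscle, fell from 97.4 and 93.7 to 2.002 and 1.91 CPM (log2 change -5.61 ± 0.53, adjusted p = 0.00089). TFR2, the erythroid transferrin receptor, rose from 2.95 and 1.73 to 9.41 and 9.79 CPM. TAL1, a factor of blood precursors and endothelium, rose from 0.531 and 0.841 to 3.04 and 2.82 CPM. DCX, doublecortin, known from migrating neurons, fell from 138 and 111 to 11.6 and 11.9 CPM (log2 change -3.41 ± 0.17, adjusted p = 6.4e-06). Of neuronal genes, 5 of 20 were higher (25%, against 18.5% of all genes) and 1 lower. STMN2, an axonal marker, had 178 and 401 CPM in wild type and 363 and 349.8 in the knockout (adjusted p = 0.57). ERBB3, the neuregulin receptor of Schwann cells and muscle, fell from 312 and 321 to 59.9 and 41.8 CPM (log2 change -2.64 ± 0.24, adjusted p = 0.00034). The Schwann gene PRX rose from 5.12 and 5.62 to 18.3 and 18 CPM (log2 change 1.75 ± 0.19, adjusted p = 0.00042). Of Schwann cell genes, 6 of 19 tested members were higher and 3 lower (31.6% and 15.8%, against 18.5% and 20.8% of all genes). CRYAB, given above, was also among the lower. Their median log2 change of 0.70 was 0.39 without knockout replicate 1 and 0.96 without knockout replicate 2. It was 0.47 without wild-type replicate 1 and 1.06 without wild-type replicate 2. Without wild-type replicate 1, higher calls in this list did not outnumber lower calls. CNN1, a calponin listed with smooth muscle, fell from 49.2 and 41.3 to 3.29 and 3.91 CPM (log2 change -3.65 ± 0.61, adjusted p = 0.0072). ACTA2, DES, SYNPO2 and TAGLN of that list were called lower too, while MYH11, which defines smooth muscle, was not called. In all, 8 of 18 tested members of that list were lower and 3 higher (44.4% and 16.7%, against 20.8% and 18.5% of all genes). Not all of the lower members are named here. OCA2, a pigment gene, fell from 16.5 and 8.85 to 2.52 and 3.21 CPM (log2 change -2.14 ± 0.39, adjusted p = 0.0048) and was the 1 lower of 10 melanocyte genes, of which 3 were higher. PMEL, the main melanosome protein, had 9.13 and 36.5 CPM in wild type and 74.7 and 56.5 in the knockout (adjusted p = 0.46). The neurons and axons list had 1 higher without knockout 1, 2 without knockout 2 and 3 without wild type 2. The melanocytes list had 0 higher without knockout 1 and 1 without knockout 2, wild type 1 or wild type 2. CNN1 (0.055 to 0.062; knockout 1 and knockout 2) had an adjusted p at or above 0.05 with 1 E41 library left out.

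Of endothelial genes, 7 of 20 tested members were higher and 0 lower, with a median log2 change of 0.50 (35% higher, against 18.5% of all genes). EGFL7, secreted by endothelium, stood at 23 and 23.4 CPM in wild type and 83.8 and 73.7 in the knockout. SOX18, a vessel and lymphatic factor, stood at 10.1 and 7.83 CPM in wild type and 34 and 22.7 in the knockout (log2 change 1.66 ± 0.31, adjusted p = 0.0063). The general markers PECAM1 (243 and 214 CPM in wild type and 230.3 and 216 in the knockout), CDH5 (193 and 152 CPM in wild type and 239.6 and 215 in the knockout) and KDR (215 and 156 CPM in wild type and 243 and 208 in the knockout) were not called (adjusted p = 0.19 to 0.91). PDGFRB of pericytes and fibroblasts rose from 105 and 81 to 266 and 260.3 CPM. The pericyte marker RGS5 had 71.5 and 48.7 CPM in wild type and 60.8 and 65.2 in the knockout (adjusted p = 0.83). PDGFRB and RGS5 do not stand for the whole smooth muscle and pericyte list, in which 3 of 18 tested members were higher and 8 lower. Of macrophage genes, 4 of 17 tested members were higher and 1 lower, with a median log2 change of 0.65, and their 23.5% higher lies near the 18.5% of all genes. C1QA, a complement subunit, rose from 20.9 and 16.1 to 30.2 and 29 CPM (log2 change 0.68 ± 0.13, adjusted p = 0.005) and SPI1, the myeloid factor PU.1, from 4.49 and 3.01 to 9.11 and 7.95 CPM (log2 change 1.19 ± 0.24, adjusted p = 0.0066). AIF1, a macrophage protein, fell from 16.1 and 10 to 7.64 and 7.73 CPM. As given above, macrophage genes summed lowest in wild-type replicate 2. The endothelium list had 12 higher with library-size scaling, 3 without knockout 1 and 2 without wild type 2. The macrophages list had 10 higher with library-size scaling, 2 without knockout 1 or knockout 2 and 13 without wild type 1. SOX18 (0.051; wild type 2) and AIF1 (0.11 to 0.19; knockout 1, knockout 2 and wild type 1) had an adjusted p at or above 0.05 with 1 E41 library left out. AIF1 (0.11 with library-size scaling, 0.053 with limma-voom) had an adjusted p at or above 0.05 under other processing.

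Cartilage genes and some immediate early genes stood apart in knockout replicate 2. Of cartilage genes, 1 of 18 tested members was higher and 0 lower, with a median log2 change of 2.02, and the median was -0.73 without knockout replicate 2. MATN1, matrilin 1 of cartilage, stood at 85.1 and 2.3 CPM in wild type and 4.31 and 517 in the knockout (adjusted p = 0.44). COL9A1, a collagen of cartilage, stood at 121 and 18.8 CPM in wild type and 20.9 and 653 in the knockout (adjusted p = 0.39). In both, wild-type replicate 1 lay above knockout replicate 1. SOX9, the master factor of cartilage, had 20.4 and 15.4 CPM in wild type and 11 and 41.2 in the knockout. Of immediate early genes, 13 of 24 tested members were higher and 0 lower, with a median log2 change of 1.15, and the median was 0.67 without knockout replicate 2. FOS had 21.7 and 24.5 CPM in wild type and 42.1 and 197 in the knockout (adjusted p = 0.16), so only knockout replicate 2 stood far out. IER3 (1.16 and 1.06 to 4.48 and 4.17 CPM; log2 change 1.96 ± 0.24, adjusted p = 0.00072) and KLF2, a factor of endothelium under flow (26.4 and 23.1 to 64.1 and 84.3 CPM; log2 change 1.59 ± 0.20, adjusted p = 0.00096), rose in both knockout libraries. The cartilage list had 3 higher without knockout 1. The immediate early genes list had 7 higher without knockout 2 or wild type 2 and 6 without wild type 1.

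Imprinted growth genes and interferon genes were mixed. Of imprinted genes, 3 of 14 tested members were higher and 6 lower, with a median log2 change of -0.34. DLK1, the inhibitor of fat cell formation that embryonic muscle secretes, fell from 514 and 512 to 121 and 141 CPM (log2 change -1.97 ± 0.22, adjusted p = 0.00053). PEG10, a retrotransposon-derived gene, fell from 3182 and 2898 to 1014 and 875 CPM (log2 change -1.69 ± 0.27). BEX1, made in regenerating muscle and neurons, fell from 45.7 and 55.9 to 12 and 12.6 CPM. DIO3, the deiodinase that inactivates thyroid hormone and shares the imprinted domain of DLK1, rose from 0.0966 and 0.0885 to 1.59 and 1.19 CPM (log2 change 3.87 ± 0.75, adjusted p = 0.0053). Of interferon response genes, 3 were higher and 7 lower of 25 (12% and 28%, against 18.5% and 20.8% of all genes tested). IFIT2, an interferon-induced RNA sensor, stood at 15.8 and 16.8 CPM in wild type and 3.08 and 3.34 in the knockout (log2 change -2.34 ± 0.18, adjusted p = 7.8e-05). IRF9, a factor that interferon activates, rose from 6.42 and 4.65 to 12.2 and 11.7 CPM (log2 change 1.11 ± 0.19, adjusted p = 0.0034). IFIT genes form a family, and whether the counting split reads among them was not tested. The interferon response list had 1 higher without knockout 1.

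Against the later stage, 3430 genes were called in the same direction at E41 and E62, 51.4% of the E41 calls and 42.7% of the 8028 calls at E62, and 628 in opposite directions. The difference between the effects was itself called for 4553 genes (26.8%), with the E41 effect the more positive in 2640. Cell cycle genes gave 2 higher and 20 lower at E41 but 9 higher and 5 lower at E62, where 21% and 26.2% of all genes were, and the difference was called for 18 of 29. CENPF, of the kinetochore, had log2 changes of -0.92 ± 0.11 at E41 and 0.62 ± 0.11 at E62 (difference -1.54 ± 0.16, adjusted p = 0.0011). GAS1 rose at E41 and fell at E62 (-1.64 ± 0.14; difference 4.22 ± 0.21, adjusted p = 2e-04), as did IGFALS (-1.31 ± 0.30; difference 4.19 ± 0.44), PITX1 (-1.19 ± 0.27; difference 3.15 ± 0.36) and NOTCH1 (-0.99 ± 0.17; difference 2.31 ± 0.25, adjusted p = 0.0013). RANBP3L, a BMP pathway regulator, went the other way, from -4.18 ± 0.55 at E41 to 3.85 ± 0.53 at E62 (difference -8.03 ± 0.77, adjusted p = 0.00099). GREM1, raised at E41, was raised far more at E62 (8.07 ± 0.43; difference -6.56 ± 0.50, adjusted p = 0.00099). Knockout counts that were low at E41 could be lower still at E62, where PAX7 had 0 and 1 counts and VGLL2 0 and 0. Of the respiratory chain, 27 of 30 genes were lower and 1 higher at E62, and the difference between stages was called for 8.

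**Figure D5:**
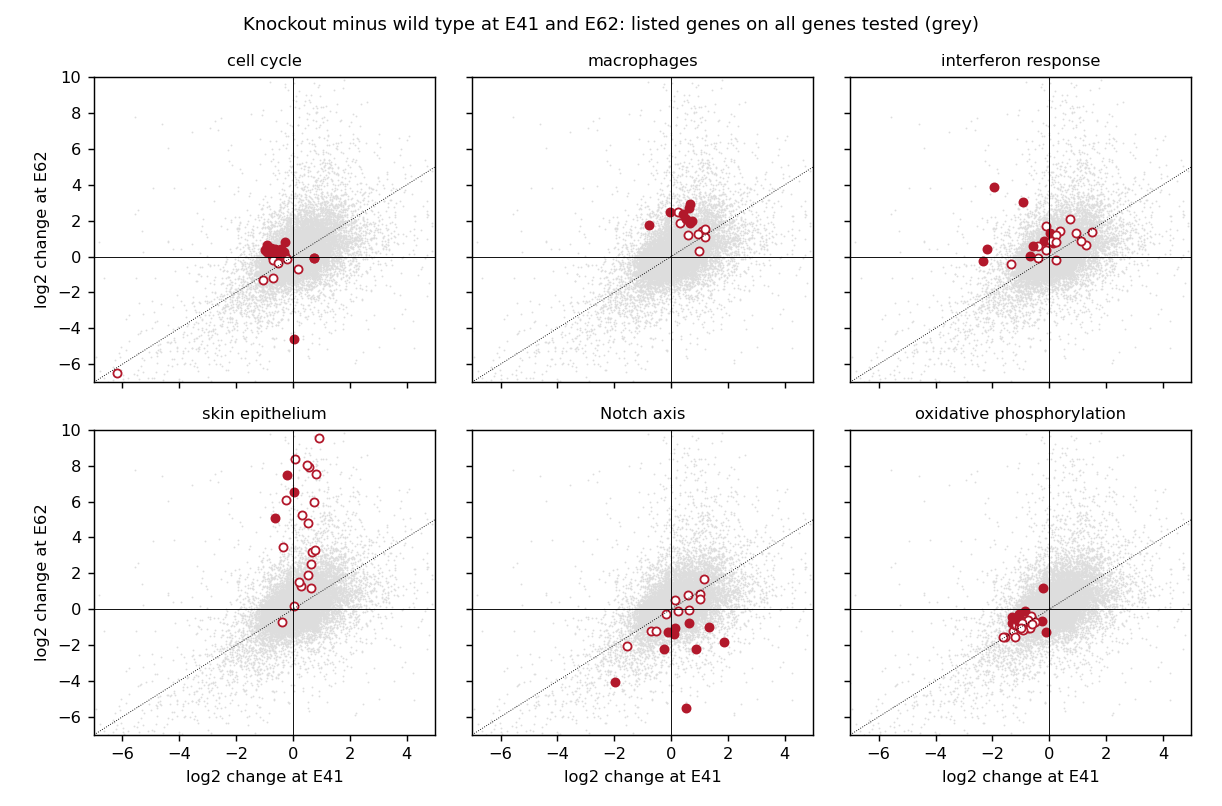
Log2 change of knockout against wild type at E41 (horizontal) and E62 (vertical) for 6 gene lists over all genes tested (grey); filled points have a called difference between stages and the dotted line marks equal effects. Cell cycle genes lie mostly left of 0 at E41 and mostly above 0 at E62, and macrophage and skin genes lie higher at E62. Notch genes are mostly lower at E62, and oxidative phosphorylation genes are below 0 at E41 and mostly below 0 at E62. Genes beyond the axes are not drawn.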

How the data were processed

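Polyadenylated RNA of 8 limb muscle samples was sequenced, and a gene-level table of estimated counts, with decimals, was deposited by the authors. Per the submitters' processing notes, the tools kallisto and DESeq2 and a genome build given as Sscrofa11.1 or susScr11 were used, with no version or role. Whether strand was used in counting is not given in the sources used here, so overlapping antisense genes cannot be separated. Coordinates are those of RefSeq on Sscrofa11.1.

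The estimated counts were rounded and tested with edgeR 4.0.16 (R 4.3.3; limma 3.58.1 and DESeq2 1.42.0 for alternatives). Genes were kept by filterByExpr with a minimum count of 10, scaled by TMM, and fitted with 1 mean for each of the 4 groups and robust quasi-likelihood dispersions on 4 residual degrees of freedom. Genes with 0 counts in a group are given against a floor of 3 counts over that group, and intervals cover counting error only (95%, Clopper-Pearson). Fits were tested on simulated data.

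Symbols matched 15527 of 22516 gene identifiers. The members and the 61 gene lists were chosen with earlier results of these data known. Named genes follow a rule: the targeted genes, MYOG, PAX7 and PAX3, the 12 largest rises and falls whose groups do not overlap and whose mean reaches 2 CPM, the highest genes at 0 in 1 genotype, up to 4 members of each list with the smallest p, up to 2 called against the rest of their list, and the 4 largest differences between stages each way. From these the text takes its examples, and the 112 other genes it names were chosen after their values were seen. Some genes that the rule names are not reported here. Replicate numbers are not said to pair samples, and the correlation of same-numbered libraries' deviations between groups was -0.12 to 0.081.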

Additional observations from a re-analysis of the deposited data

Results flagged for a closer look

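These genes were picked out because the effect of the knockout differed between the stages by the interaction test of edgeR (adjusted p under 0.05, 26.8% of all genes tested). Values are the log2 change at E41 minus that at E62, so a positive value means that the knockout level relative to wild type was higher at E41. The cause of the differences was not tested.

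For muscle transcription regulators and E proteins and ID inhibitors, the difference was -0.65 for ID2, and 0.70 for MEF2C, 1.14 for MEF2D, 6.15 for VGLL2, 6.94 for PAX7 and 0.55 for TCF3. For myosin heavy chains of striated muscle and nonmuscle and smooth myosin heavy chains, the difference was -5.21 for MYH13, -2.84 for MYH15, -1.41 for MYH11 and -0.72 for MYH9, and 3.43 for MYH8 and 3.13 for MYH14. For myosin light chains, actin isoforms and troponins and tropomyosins, the difference was -0.82 for MYL6, -0.78 for ACTA2, -0.71 for ACTG1 and -1.06 for TPM4, and 1.67 for ACTC1 and 1.72 for TPM1. For giant and Z-disc proteins, the difference was 1.45 for FHL3, 1.95 for FLNC, 2.15 for TMOD4, 2.60 for KLHL41, 2.75 for SYNPO2, 2.90 for PDLIM3 and 3.53 for DES. For myoblast fusion and differentiation and triad and calcium handling, the difference was 1.81 for KLHL31, 2.35 for CDH15, 1.31 for KCNJ11, 1.47 for ATP2A2, 1.99 for SRL and 3.59 for CASQ1.

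For neuromuscular junction and dystrophin complex, the difference was -2.27 for CHRNA1, and 0.86 for CHRNB1, 1.78 for LAMB2, 1.94 for CHRNE, 2.01 for ERBB3, 0.47 for SGCB and 1.97 for DMD. For muscle energy enzymes, ubiquitous or other-tissue energy isoforms and small heat shock proteins and muscle chaperones, the difference was -2.12 for PYGB, -1.03 for ENO2, -1.02 for CRYAB and -0.75 for HSPE1, and 0.92 for GAPDH, 1.59 for PGAM2, 1.54 for CKB and 1.83 for HSPB1. For TGF-beta and activin axis, BMP axis, FGF axis and Wnt ligands and receptors, the difference was -6.56 for GREM1, -0.72 for DUSP6 and -0.83 for FZD4, and 1.44 for INHBB, 1.28 for RGMB and 1.28 for FGF2. For Wnt antagonists and targets, Notch axis and hedgehog axis, the difference was 0.99 for NKD2, 1.22 for LGR4, 1.48 for HES1, 2.11 for DLK1, 2.31 for NOTCH1, 0.82 for SMO, 0.91 for GLI2 and 4.22 for GAS1. For YAP targets and mechanical response, connective tissue fibroblasts, tendon, endothelium and smooth muscle and pericytes, the difference was -1.26 for EBF2, -1.73 for ITGA8 and -1.27 for TAGLN, and 0.84 for YAP1, 1.96 for TEAD4, 2.85 for SCX and 2.33 for SOX18.

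For Schwann cells, neurons and axons, melanocytes, macrophages and limb patterning factors, the difference was -3.84 for STMN2, -2.50 for AIF1, -1.24 for C1QA, -5.33 for IRX1 and -3.003 for ZIC1, and 1.25 for PRX, 1.94 for OCA2 and 3.15 for PITX1. For imprinted growth genes, collagens, proteases and inhibitors of the matrix and axon guidance, the difference was -0.97 for COL24A1, -1.28 for ADAM12 and -1.20 for SLIT3, and 2.89 for PEG10, 0.95 for PLXNA2 and 2.43 for HGF. For cell cycle and oxidative phosphorylation, the difference was -1.54 for CENPF, -1.34 for CCNB2, -0.98 for MCM6 and -1.42 for COX6C, and 0.84 for CDKN2C and 1.16 for SDHA. For mitochondrial biogenesis regulators, p53 targets and apoptosis, unfolded protein and integrated stress response, immediate early genes and interferon response, the difference was -0.57 for CALR and -2.10 for IFIT2, and 3.97 for ESRRG, 0.48 for BCL2, 1.26 for ASNS and 1.57 for KLF2. For proteasome and muscle ubiquitin ligases and other named genes, the difference was -1.14 for TRIM63, -0.55 for PSMC1, -8.03 for RANBP3L and -5.75 for CORT, and 1.17 for ASB5, 2.91 for FBXO32, 3.76 for KLHL30, 2.58 for LRTM2, 3.22 for C1QTNF4, 3.32 for TNR, 3.64 for SSTR1 and 4.19 for IGFALS.

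In VGLL2, PAX7, KLHL30 and CORT at least 1 group had 3 counts or fewer, so the fitted difference depends on the prior count and is no bound.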

How the results depend on the processing

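At E41 the count of called genes, 6678, was 682 (153 higher, 529 lower) when a change of at least 2-fold was tested, and 3927 to 6720 with 1 library left out, lowest without knockout replicate 1 and 4036 without knockout replicate 2. For the difference between stages the count of 4553 was 559 against 2-fold and 2499 to 4282 with 1 library left out, with 2499 and 2685 without knockout E41 replicates 1 and 2. In these fits the lone library of a group is assumed to vary like the other groups. All other settings kept both counts within 1.5 times. Scaling by library totals alone moved the median of all genes from 0.089 to 0.38 and the share of higher calls from 47.1% to 73.6%, and changes are best read against that shift. It turned the log2 change of MEF2A to 0.28 and the median sign of the nonmuscle myosin, ubiquitous energy isoform, smooth muscle, glycolysis, p53 and unfolded protein lists. Medians of the cartilage and tendon lists turned negative without knockout replicate 2 (-0.73 and -0.19). With a replicate block, 6114 and 3851 genes were called, and the numbers are not known to pair samples. Depth limits low genes: with 0 counts in a group, only a bound is given. The cause of the changes with 1 library left out was not tested beyond the smaller number of samples.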

Other observations

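Several tissue lists that the comparison did not turn on were measured in the same fit. Smooth muscle and pericyte genes had 3 higher and 8 lower of 18 (16.7% and 44.4%, against 18.5% and 20.8% of all genes), and TAGLN, transgelin, an actin-binding protein, fell from 114 and 113 to 52.7 and 55.9 CPM (log2 change -1.06 ± 0.15, adjusted p = 0.0015). Bone genes had 2 higher and 0 lower of 17 (11.8% and 0%). ALPL, the phosphatase of mineralising bone, stood at 15.5 and 24.8 CPM in wild type and 27.9 and 48.6 in the knockout (adjusted p = 0.084). Red blood cell genes had 4 higher and 1 lower of 16 (25% and 6.25%). Of 2938 genes tested without a symbol, 754 were called. The smooth muscle and pericytes list had 3 lower without knockout 1 and 4 without knockout 2 or wild type 1. The bone list had 5 higher without knockout 1 or wild type 2 or with library-size scaling. The red blood cells list had 2 higher without knockout 2 or wild type 2.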
